A study of Mus musculus with 31 samples.

Results

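The tight junction genes described here are 10 genes listed by name for the barrier that serotonin is known to regulate: the claudins *Cldn1*, *Cldn3*, *Cldn4*, *Cldn5*, *Cldn7* and *Cldn8*, occludin (*Ocln*), junctional adhesion molecule A (*F11r*), and the zonula occludens scaffolds *Tjp1* and *Tjp3*. All 10 were matched by symbol among 55379 counted mouse genes, and 9 of them had enough counts to be tested. The glands came from 31 C57BL/6J dams on lactation day 10, which were bred from 6 weeks of age and had been on their diet from 2 weeks before mating. The breeder diet held 4 mg/kg folic acid (FA) and the FA diet 24 mg/kg. Dams were injected intraperitoneally with saline or with fluoxetine, a selective serotonin reuptake inhibitor, at 20 mg/kg per day, from embryonic day 13 to lactation day 10. The sample labels assign 8 dams each to breeder diet + saline, FA diet + saline and FA diet + fluoxetine, and 7 dams to breeder diet + fluoxetine. The study's methods give 8 and 7 dams for the fluoxetine groups on the breeder and the FA diet, and the labels were followed here. Polyadenylated RNA of whole gland was sequenced as 1 library per dam, and total counts ranged from 15412542 to 36000439 with a median of 22299952.

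Tight junctions seal the space between neighbouring epithelial cells near their apical surface. Claudins form the strands that set which ions and solutes pass, occludin and its relatives join those strands at cell corners and along the seal, junctional adhesion molecules hold neighbouring membranes together, and zonula occludens proteins anchor all of these to actin. In the mammary gland these seals close at the onset of lactation, which keeps milk components in the alveolus, and they open again at involution. Serotonin made by the mammary epithelium is known to act on this seal as part of the local feedback that slows secretion when milk is not removed.

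Start site sequences are shown for *Cldn8*, the member with the highest level per length, for *Ocln*, the member with the smallest p for fluoxetine, and for *Cldn3* and *Cldn4*, whose start sites lie 39280 bases apart on chromosome 5. Each runs from 250 bases before to 50 bases after the annotated start of the main transcript, 5′ to 3′ on the gene's strand, and was read from GRCm39. The windows are chr16:88360022-88360321 on the minus strand for *Cldn8*, chr13:100689180-100689479 on the minus strand for *Ocln*, chr5:135014818-135015117 on the plus strand for *Cldn3* and chr5:134975739-134976038 on the minus strand for *Cldn4*. Capitals mark matches, on either strand, to the letters GGGCGG (a GC box), CAGGTG (an E-box of the kind that Snail and Zeb proteins recognise) and TTCNNNGAA (the core read by STAT factors).
Cldn8: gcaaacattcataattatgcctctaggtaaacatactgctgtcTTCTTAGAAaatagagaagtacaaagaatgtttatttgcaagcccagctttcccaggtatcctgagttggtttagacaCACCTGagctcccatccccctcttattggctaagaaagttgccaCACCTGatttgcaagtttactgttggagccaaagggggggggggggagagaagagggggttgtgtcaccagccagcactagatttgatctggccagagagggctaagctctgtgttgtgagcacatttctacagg
Ocln: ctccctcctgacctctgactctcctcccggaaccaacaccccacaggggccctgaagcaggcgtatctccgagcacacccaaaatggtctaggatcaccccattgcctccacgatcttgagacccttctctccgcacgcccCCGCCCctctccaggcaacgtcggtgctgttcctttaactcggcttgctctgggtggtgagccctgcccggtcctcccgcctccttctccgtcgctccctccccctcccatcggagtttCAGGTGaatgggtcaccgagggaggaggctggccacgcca
Cldn3: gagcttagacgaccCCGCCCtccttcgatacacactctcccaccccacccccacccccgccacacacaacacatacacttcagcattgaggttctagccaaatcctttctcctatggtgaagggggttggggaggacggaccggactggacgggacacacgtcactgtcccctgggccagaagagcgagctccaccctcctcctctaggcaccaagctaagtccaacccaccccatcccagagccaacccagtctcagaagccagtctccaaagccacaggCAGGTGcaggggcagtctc
Cldn4: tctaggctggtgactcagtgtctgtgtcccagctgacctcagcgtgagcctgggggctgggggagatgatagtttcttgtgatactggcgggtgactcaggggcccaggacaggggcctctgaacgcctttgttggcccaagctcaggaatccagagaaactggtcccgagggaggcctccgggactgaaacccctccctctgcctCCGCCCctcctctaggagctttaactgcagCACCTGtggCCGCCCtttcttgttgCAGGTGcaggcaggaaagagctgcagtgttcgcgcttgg
The *Cldn8* window held 2 E-box matches, 129 and 85 bases before the start, and a STAT match 207 bases before it. It held 0 CpG dinucleotides and was 47% G or C, against 17 CpG and 64% in *Ocln*, 9 and 60.7% in *Cldn3*, and 9 and 61% in *Cldn4*. The median over 21614 promoters of protein-coding genes was 54.3%. The E-box letters were found in the promoters of 7 of the 10 genes (*Cldn3*, *Cldn4*, *Cldn7*, *Cldn8*, *Ocln*, *Tjp3* and *F11r*) and in 20.6% of the 21614 promoters. The GC box letters were found in 8 of the 10 and in 42.6% of all promoters, and the STAT letters in 2 of the 10 (*Cldn7*, 160 bases before its start, and *Cldn8*) and in 8.85% of all. TATAAA was found in none of the 10 and in 13.2% of all promoters. AACNNGTT, the core of grainyhead sites, was found in 1 of the 10 (*Cldn5*, 20 bases before its start) and in 4.26%. These are matches of letters only.

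A pair of libraries stood apart from the rest, and several results are also given without them. The labels do not say whether these held another kind of tissue piece, and this was not tested. In most dams the 20 most abundant genes, mainly caseins and whey proteins, took over 70% of the counts, but they held 39.3% in dam 3 of FA diet + fluoxetine and 60.5% in dam 13 of breeder diet + fluoxetine. Levels here are CPM, read counts scaled to library size with TMM normalization, and the TMM factor was 3.04 in dam 3 and 1.57 in dam 13, against 0.716 as the lowest and 0.957 as the median of all dams. The standing of dam 3 depended on this factor. Its summed level of the 10 genes was the lowest of 31 dams with TMM (139 against a median of 209 CPM) and with RLE scaling (142 against 210), and the highest by library size alone (423 against 213). Its 8 luminal epithelial markers likewise had the lowest summed level with TMM (553 against 1002 CPM) and the highest by library size alone (1683 against 987). Its milk proteins had the lowest summed level under all 3 scalings. Its scaffold genes of the tight junction (482 against 319 CPM with TMM) and its adherens junction and desmosome genes (298 against 208 CPM) were the highest under all 3. Its skeletal muscle markers stood at 0.664 CPM with TMM against a median of 245, and the lowest of the other dams stood at 0.954 CPM. By library size alone they stood at 2.02 CPM, rank 5 from the lowest, against a median of 241. Among the members, *Cldn8* was lowest and *Cldn4* highest in dam 3 under all 3 scalings, whereas *Cldn7* and *Ocln* were lowest there with TMM and RLE but not by library size alone (48.3 and 4.89, against medians of 38.3 and 5.59). In dam 13 the myoepithelial markers had the lowest summed level with TMM (231 against 418 CPM) and RLE but not by library size alone (362 against 410).

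*Cldn8*, *Cldn7* and *Cldn3* made up most of the claudin signal, at 87.4% of the mean level per kb summed over the 25 claudins matched. Per length of exon, *Cldn8* had the highest level, at 24.2 ± 10.5 CPM per kb (SD, n = 31 dams). *Cldn7* followed at 18.0 ± 3.49 and *Cldn3*, a barrier-forming claudin, at 17.1 ± 4.06 CPM per kb. These 3 genes took 36.3%, 28.6% and 27.2% of the level per kb summed over the 6 claudins listed. The order among them was loose, since *Cldn8* exceeded *Cldn7* in 22 of 31 dams and *Cldn7* exceeded *Cldn3* in 20 of 31. *Cldn7* has transcripts of different length, and with the longest transcript as its length in place of all exons it stood at 28.4 CPM per kb, above *Cldn8*. *Cldn5*, the claudin of endothelial junctions, stood at 2.67 ± 1.23 CPM per kb, and *Cldn4*, a sealing claudin of many epithelia, at 2.09 ± 1.60 CPM per kb. *Cldn1*, a claudin of the epidermal barrier, was at the edge of detection with 0.0409 ± 0.0576 CPM per kb and 137 counts over all 31 dams.

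Of the other members, junctional adhesion molecule A had the highest level per kb, and occludin had the lowest level per kb of the tested members, although its CPM, which is not per length, was above that of *Cldn4* and *Cldn5* (5.80 against 3.79 and 3.78). *F11r* stood at 12.3 ± 2.98 CPM per kb (SD, n = 31), below *Cldn3* in 29 of 31 dams. The scaffold *Tjp3* (ZO-3), an epithelial member of its family, stood at 3.80 ± 1.15 CPM per kb, below *F11r* in every dam and above *Cldn5* in 23 of 31. *Tjp1* (ZO-1), which is expressed in most epithelia and in endothelium, stood at 2.64 ± 0.467 CPM per kb. *Tjp1* and *Cldn5* could not be ordered, since *Cldn5* was the higher in 15 of 31 dams. *Ocln*, a membrane protein with 4 spans that is enriched in junction strands, stood at 0.618 ± 0.194 CPM per kb and lay below *Cldn4* in 30 of 31 dams.

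**Figure D1:**
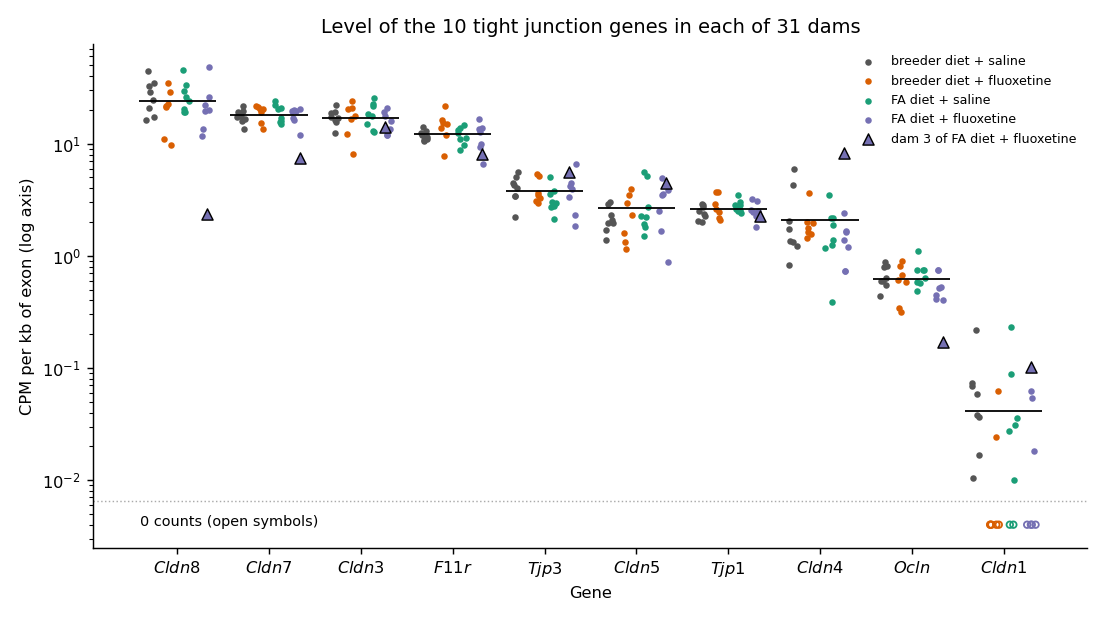
Level of each gene in CPM per kb of exon (log axis) in 31 dams, coloured by group, with a line at the mean over all dams and open symbols for 0 counts. *Cldn8*, *Cldn7* and *Cldn3* lie on top at means of 24.2, 18.0 and 17.1 CPM per kb, *Ocln* lies at 0.618, and the triangle of dam 3 of FA diet + fluoxetine falls below all other dams for *Cldn8*, *Cldn7* and *Ocln* (by library size alone, for *Cldn8* alone) and above them for *Cldn4*.

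Among the 9 tested members the dams differed most in *Cldn4* and *Cldn8*, and *Cldn1*, at few counts, had a coefficient of variation of 141% over all dams. The biological coefficient of variation between dams, estimated by edgeR within groups, was 60.3% for *Cldn4* and 47.5% for *Cldn8*. Each was 1.59 times the value for genes of like abundance, and over 95% of all genes tested had a lower ratio (95.4% for each of them). Without dam 3 of FA diet + fluoxetine, the highest in *Cldn4* and the lowest in *Cldn8*, the values were 48.8% and 38.2%, or 1.40 and 1.42 times the trend, and 93.6% and 93.9% of genes had a lower ratio. *Tjp1* was the steadiest member at 19.5%, 0.697 times the trend, and 16.7% of genes had a lower ratio. *Cldn7*, *F11r* and *Cldn3* varied by 23.3%, 24.5% and 25.4%, *Tjp3* and *Ocln* by 29.7% and 32.3%, and *Cldn5* by 41.9%.

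The first comparison asked whether fluoxetine changed the expression of the barrier genes, over both diets. No member passed the FDR of 10% with edgeR's quasi-likelihood test, under which 0.0209% of the 14362 genes tested were called (3 genes). The likelihood ratio test called 0.404% of all genes (49 higher and 9 lower) and DESeq2 0.487% (53 higher and 17 lower), and both called 0 members. At an unadjusted p of 0.05 or below, 0 of 9 members were higher and 0 were lower, against 6.94% of all genes tested higher and 2.98% lower. The median log2 fold change of the 9 members was 0.031, with 5 estimates above 0, and that of all genes was 0.019. Without dam 3 of FA diet + fluoxetine the members' median was -0.0033, with 4 estimates above 0. Without dam 13 of breeder diet + fluoxetine it was 0.062, with 5 above 0.

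Occludin had the smallest p for fluoxetine. In CPM, *Ocln* ranged from 4.12 to 8.32 with a median of 5.78 in breeder diet + saline and from 2.99 to 8.36 with a median of 5.70 in breeder diet + fluoxetine. On the FA diet it ranged from 4.59 to 10.3 (median 6.45) with saline and from 1.61 to 7.07 (median 4.53) with fluoxetine. The groups overlapped widely, and 10 of 15 fluoxetine-treated dams lay below the median of saline dams on the same diet. The log2 fold change of *Ocln* for fluoxetine was -0.32 ± 0.167 (SE), with a 95% interval from -0.65 to 0.0063, p = 0.0629 and adjusted p = 0.527 by edgeR's quasi-likelihood test (n = 15 and 16 dams). It was -0.27 (adjusted p = 0.579) without dam 3 of FA diet + fluoxetine and -0.20 (adjusted p = 0.660) without both libraries that stood apart. In bulk tissue, fewer cells of a type and less RNA per cell cannot be told apart, for this and every other member.

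*Cldn8* was the other member with a fluoxetine estimate beyond 0.3 on the log2 scale. Its CPM ranged from 38.4 to 104 (median 62.9) in breeder diet + saline and from 22.9 to 81.4 (median 51.0) in breeder diet + fluoxetine. On the FA diet the range was 45.1 to 108 (median 59.3) with saline and 5.59 to 114 (median 46.5) with fluoxetine, where the lowest value was dam 3. The groups overlapped, although 11 of 15 fluoxetine dams lay below the saline median of their diet. The log2 fold change was -0.38 ± 0.250 (SE) with an interval from -0.87 to 0.11, p = 0.136 and adjusted p = 0.617 with edgeR's test (n = 15 and 16 dams), and it was -0.31 (adjusted p = 0.653) without dam 3.

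The remaining fluoxetine estimates lay closer to 0. They were -0.12 for *Cldn3*, -0.048 for *Cldn7*, 0.031 for *Tjp1*, 0.085 for *Cldn4*, 0.11 for *F11r*, 0.12 for *Tjp3* and 0.14 for *Cldn5*, with unadjusted p from 0.341 to 0.794. The interval was narrow for *Tjp1* (-0.15 to 0.22), *Cldn7* (-0.27 to 0.17), *Cldn3* (-0.37 to 0.13) and *F11r* (-0.13 to 0.34), and wide for *Cldn5* (-0.29 to 0.57) and *Cldn4* (-0.55 to 0.72). Leaving out dam 13 of breeder diet + fluoxetine moved the *Cldn3* estimate to -0.061, and leaving out dam 3 moved *Cldn5* to 0.083, *Tjp3* to 0.069 and *Cldn7* to -0.0033. These intervals bound the differences, and a p that misses the threshold does not show that the groups were alike. The sign for *Cldn4* rested on single libraries, since leaving out dam 3 of FA diet + fluoxetine gave -0.28 and leaving out dam 5 of breeder diet + fluoxetine gave -0.023.

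**Figure D2:**
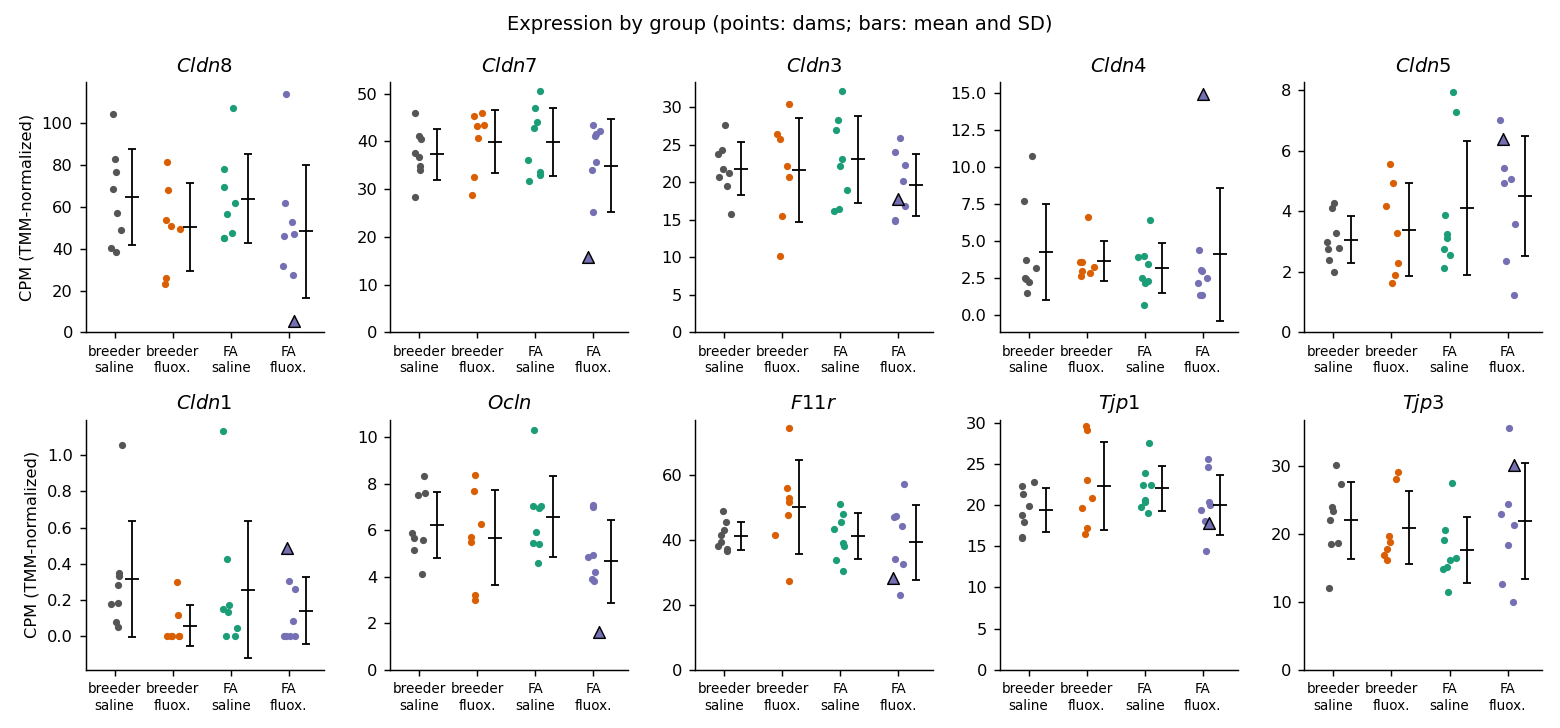
CPM of the 10 genes in each dam by group (linear axes), with bars for the mean and SD and a triangle for dam 3 of FA diet + fluoxetine. The groups overlap in every panel, and the triangle is the lowest point of *Cldn8* (5.59 CPM), *Cldn7* (15.9 CPM) and *Ocln* (1.61 CPM), the last 2 not so by library size alone, and the highest of *Cldn4* (14.9 CPM).

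The second comparison asked whether dietary FA changed these genes, over both injections. No member passed the FDR of 10% with edgeR's quasi-likelihood test, as 0% of all genes did, and DESeq2 and the likelihood ratio test called 0 as well. At an unadjusted p of 0.05 or below, 0 of 9 members were higher and 0 lower, against 2.95% and 2.12% of all genes tested. The median estimate was -0.052 on the log2 scale for the members, of which 2 of 9 were above 0, and 0.017 for all genes. The members' median was -0.028 (3 above 0) without dam 3 of FA diet + fluoxetine and -0.074 (1 above 0) without dam 13 of breeder diet + fluoxetine. Without both dams it was -0.092, with 3 above 0.

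The endothelial claudin had the smallest p for FA. *Cldn5* ranged from 1.98 to 4.27 CPM (median 2.87) in breeder diet + saline and from 2.13 to 7.92 CPM (median 3.18) in FA diet + saline. With fluoxetine it ranged from 1.63 to 5.57 CPM (median 3.27) on the breeder diet and from 1.24 to 7.02 CPM (median 5.01) on the FA diet. The groups overlapped, and 11 of 16 dams on the FA diet lay above the median of the breeder diet with the same injection. The log2 fold change was 0.42 ± 0.220 (SE), 1.33-fold, with an interval from -0.016 to 0.85, p = 0.0678 and adjusted p = 0.933 with edgeR's test (n = 16 and 15 dams). It was 0.36 (adjusted p = 0.769) without dam 3 of FA diet + fluoxetine. Beside it, 8 of 9 endothelial markers had estimates above 0 for FA, with a median of 0.14 (0.065 without dam 3), and 0 of them reached an unadjusted p of 0.05. For fluoxetine, 8 of these 9 markers were above 0 as well, with a median of 0.13 (medians of all genes 0.017 for FA and 0.019 for fluoxetine). Their summed level was 58.1 ± 14.9 and 63.1 ± 22.3 CPM (SD) with saline, and 65.8 ± 13.3 and 71.4 ± 18.2 CPM with fluoxetine, on the breeder and the FA diet respectively. Kdr, a receptor for vascular endothelial growth factor, was the most abundant of them (12.9 CPM), none was at 0, and their part in the *Cldn5* estimate was not tested.

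The other FA estimates were small. They were -0.18 for *F11r* (interval -0.41 to 0.055), -0.12 for *Tjp3*, -0.11 for *Cldn4*, -0.10 for *Ocln*, -0.052 for *Cldn7*, -0.040 for *Cldn8*, -0.031 for *Cldn3* and 0.013 for *Tjp1*, the last with an interval from -0.17 to 0.20. Without dam 3, *Ocln* stood at -0.039, *Cldn7* at -0.0030 and *Cldn8* at 0.038. For *Cldn4* the estimate moved to -0.48 (edgeR's adjusted p = 0.743) without dam 3 of FA diet + fluoxetine.

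The third comparison asked whether the fluoxetine effect differed between the diets. By edgeR's quasi-likelihood test no member had an interaction at the FDR of 10%, as 0% of all genes did, and the likelihood ratio test and DESeq2 called 0. At an unadjusted p of 0.05 or below, 0 of 9 members were higher and 0 lower, against 2.65% and 1.19% of all genes tested. Of the 9 estimates 2 were above 0, with a median of -0.22 on the log2 scale against 0.035 for all genes.

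*Tjp1* had the smallest p of the interaction. Its CPM ranged from 16.0 to 22.9 (median 19.3) in breeder diet + saline and from 16.4 to 29.6 (median 20.9) in breeder diet + fluoxetine, and from 19.1 to 27.5 (median 21.5) in FA diet + saline and 14.4 to 25.6 (median 19.7) in FA diet + fluoxetine. The medians were ordered in opposite ways on the 2 diets, and the ranges overlapped. The interaction was -0.33 ± 0.188 (SE) with an interval from -0.70 to 0.034, adjusted p = 0.977 with edgeR's test. Without both libraries that stood apart it was -0.37 (adjusted p = 0.998), then at an unadjusted p of 0.05 or below. *F11r* showed the same order of medians. It ranged from 36.5 to 48.8 CPM (median 40.3) in breeder diet + saline and from 27.2 to 74.4 CPM (median 51.7) in breeder diet + fluoxetine. On the FA diet it ranged from 30.4 to 51.1 CPM (median 41.2) with saline and from 22.8 to 57.3 CPM (median 39.1) with fluoxetine, so that these groups overlapped as well. Its interaction was -0.35 (interval -0.82 to 0.11). It was -0.23 without dam 6 and -0.46 without dam 9 of breeder diet + fluoxetine, and -0.67 with a block by dam number. The -0.46 and the -0.67 were at an unadjusted p of 0.05 or below. The interactions of the other members were -0.36 for *Ocln*, -0.29 for *Cldn7*, -0.22 for *Cldn3*, -0.046 for *Cldn8*, -0.019 for *Cldn5*, 0.38 for *Tjp3* and 0.59 for *Cldn4*, each with an adjusted p of 0.977 or above. Leaving out dam 3 of FA diet + fluoxetine turned the *Cldn4* interaction to -0.14, and leaving out both libraries moved that of *Cldn7* to -0.16.

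**Figure D3:**
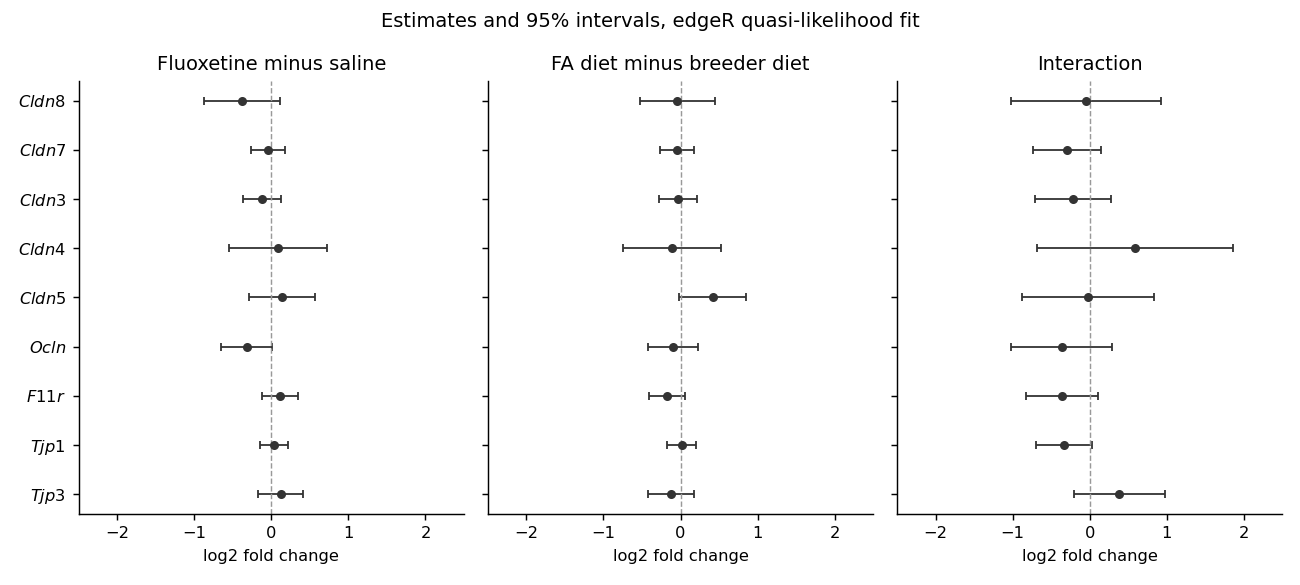
Log2 fold changes of the 9 tested genes with 95% intervals for fluoxetine against saline, FA diet against breeder diet, and the interaction (edgeR quasi-likelihood fit, 31 dams). Every interval includes 0, the nearest to excluding it being *Ocln* for fluoxetine (-0.65 to 0.0063) and *Cldn5* for FA (-0.016 to 0.85), and *Cldn4* has the widest interval.

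*Cldn1* was too scarce for the test, and it was counted in fewer fluoxetine dams than saline dams. It had 0 counts in 5 of 7 dams of breeder diet + fluoxetine and 4 of 8 of FA diet + fluoxetine, and in 0 of 8 and 2 of 8 of the saline groups on the same diets. With TMM the highest value was 0.300 and 0.489 CPM in the fluoxetine groups, and 1.06 and 1.13 CPM in the saline groups. The 0.489 CPM was that of dam 3 of FA diet + fluoxetine, which held 28 of the 54 counts in fluoxetine dams. By library size alone this dam stood at 1.49 CPM, the highest of 31, against at most 1.04 CPM in the others. The order of the highest values thus depended on the scaling. A count of 0 allowed up to 3 counts, or 0.0954 to 0.202 CPM in these 11 dams, by counting error alone, so that absence was not shown. In a fit without the filter on low counts, the log2 fold change of *Cldn1* for fluoxetine was -1.50 ± 0.718 (SE), with p = 0.0420 and adjusted p = 0.426 by edgeR's quasi-likelihood test (n = 15 and 16 dams). The value depends on how such low counts are fitted. The share of all genes at such a p in the fit without the filter is not given here. Nor is the share of equally scarce genes with 0 counts in more fluoxetine dams. These *Cldn1* values thus have no background beside them.

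Few claudins beyond the 6 listed had enough counts to be tested. Of 19 others that were matched, 4 passed the filter, 8 had counts but did not pass, and 7 had 0 counts in all dams. *Cldn12*, a claudin linked to calcium transport, stood at 1.37 ± 0.403 CPM per kb (SD, n = 31), *Cldn15*, a pore-forming claudin, at 1.27 ± 0.535, *Cldn23* at 0.722 ± 0.547 and *Cldn19* at 0.107 ± 0.0770 CPM per kb. None of the 4 reached an unadjusted p of 0.05 in any contrast. The smallest p was that of *Cldn23* for fluoxetine (log2 fold change -0.64 ± 0.369, adjusted p = 0.571 by edgeR's quasi-likelihood test). Its medians were 1.77 and 0.890 CPM in saline and fluoxetine dams on the breeder diet, and 1.11 and 0.906 CPM on the FA diet.

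Of the partner proteins in the membrane and the cytoplasmic plaque, 35 more genes passed the filter, 10 of 11 in the membrane list and 25 of 26 in the scaffold list. The best expressed were the Y-box protein *Ybx3* at 11.4 CPM per kb, cingulin (*Cgn*), a plaque protein that binds actin and myosin, at 6.30, and *Marveld3*, a relative of occludin, at 5.92 CPM per kb. None of the other tight junction genes passed the FDR of 10% in a contrast with edgeR's quasi-likelihood test, DESeq2 or the likelihood ratio test. At an unadjusted p of 0.05 or below for fluoxetine, 4 of the 39 other tight junction genes tested were higher and 2 lower, beside 6.94% and 2.98% of all genes tested. For FA, 1 was higher and 2 were lower (2.95% and 2.12% of all genes), and for the interaction 1 was higher and 0 lower (2.65% and 1.19%).

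The 4 genes that were higher at that level with fluoxetine were *Igsf5* (JAM-4), *Amotl1*, *Afdn* (afadin) and the vesicle GTPase *Rab13*. *Igsf5* had medians of 2.41 and 3.55 CPM in saline and fluoxetine dams on the breeder diet and 3.22 and 4.03 CPM on the FA diet. The fluoxetine estimate of *Igsf5* was 0.36 ± 0.147 (SE) with p = 0.0185 and adjusted p = 0.430 by edgeR's test (n = 15 and 16 dams). It was 0.35 (p = 0.0255, n = 30 dams in all) without dam 3 of FA diet + fluoxetine. *Amotl1*, an angiomotin family protein that binds Crumbs complex members, had an estimate of 0.48 (p = 0.00634, adjusted p = 0.373, n = 31 dams), and 0.28 (p = 0.0203, n = 30) without that dam. *Rab13* missed the level without that dam (0.54 and p = 0.0275 with it, n = 31, and 0.28 and p = 0.152 without, n = 30). So did *Afdn* (0.26 and p = 0.0227 with it, n = 31, and 0.15 and p = 0.0737 without, n = 30). Dam 3 held the highest value of all 31 dams for *Amotl1* (99.7 CPM), *Afdn* (62.2 CPM) and *Rab13* (8.06 CPM). Lower at that level were the polarity gene *Pard6b* (-0.42, p = 0.0433, n = 31 dams) and *Amot* (-0.34, p = 0.0434). *Amot* missed the level without dam 3 (-0.29, p = 0.0621, n = 30), and *Pard6b* missed it without both libraries that stood apart (-0.40, p = 0.0598, n = 29).

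For FA, tricellulin (*Marveld2*), the occludin relative that seals the corners where several cells meet, had the smallest p of all junction genes. Its range was 4.32 to 6.87 CPM (median 5.44) in breeder diet + saline and 3.82 to 5.28 CPM (median 4.92) in FA diet + saline. With fluoxetine it was 4.46 to 7.23 CPM (median 6.61) on the breeder diet and 2.70 to 6.81 CPM (median 4.93) on the FA diet. The groups overlapped. The log2 fold change was -0.31 ± 0.109 (SE), with p = 0.00755 and adjusted p = 0.933 by edgeR's test (n = 16 and 15 dams), and it was -0.33 (p = 0.00612) without dam 3 of FA diet + fluoxetine. *Micall2*, a partner of *Rab13* in junction assembly, was lower at that level (-0.28, p = 0.0490, n = 31 dams), and *Igsf5* was higher (0.30, p = 0.0466). Without dam 3 (n = 30) *Micall2* stood at -0.24 (p = 0.0694) and *Igsf5* at 0.29 (p = 0.0565), and without both libraries (n = 29) *Micall2* stood at -0.28 (p = 0.0401) and *Igsf5* at 0.30 (p = 0.0605). The exchange factor *Arhgef11* had an interaction of 0.75 at that level (edgeR's adjusted p = 0.977), which was 0.53 and missed it without that dam. *Pard6a*, a polarity gene, had an interaction of -0.71 that missed the level with all dams and -0.67 (edgeR's adjusted p = 0.998) at that level without both libraries.

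The neighbouring junctions were not called either. Of 13 adherens junction and desmosome genes 12 passed the filter, and none passed the FDR of 10% with edgeR's test. At an unadjusted p of 0.05 or below, the plakophilins *Pkp3* (0.55, p = 0.0159) and *Pkp2* (0.21, p = 0.0460), which are desmosome plaque proteins, were higher with fluoxetine (n = 31 dams), which is 2 of 12 genes beside 6.94% of all genes tested. *Nectin1* was higher with FA (0.40, p = 0.0229, n = 31 dams), and *Pkp3* had an interaction of 0.91 at that level, each 1 of 12 genes beside 2.95% and 2.65% of all. Dam 3 of FA diet + fluoxetine held the highest value of 31 for *Pkp3* (32.5 CPM against medians of 4.20 to 6.61 CPM in the groups) and *Nectin1* (6.90 CPM). Without it (n = 30) *Pkp3* stood at 0.23 (p = 0.0951) for fluoxetine, *Nectin1* at 0.27 (p = 0.0761) for FA and *Pkp2* at 0.23 (p = 0.0237). The *Pkp3* interaction was then 0.28 (adjusted p = 0.997 by edgeR's test) and missed the level. For FA, 3 of the 12 genes were lower and 0 higher at that level without dam 3 alone. For the fits without dam 3 or without both libraries, no share of all genes is given here, so these counts have no background. Without both libraries (n = 29) *Nectin1* was again at that level for FA (0.33, p = 0.0279), and 3 genes were lower at it, *Nectin4* (-0.46, p = 0.0118), the alpha-catenin gene *Ctnna1* (-0.15, p = 0.0367) and the plakoglobin gene *Jup* (-0.18, p = 0.0490).

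The cell type markers of the gland gave the following levels beside these genes. All 8 luminal epithelial markers passed the filter, with *Elf5*, a transcription factor of alveolar cells, the most abundant at 554 CPM. With saline their summed level was 1023 ± 93.8 CPM (SD) on the breeder diet and 1019 ± 132 CPM on the FA diet. With fluoxetine it was 1040 ± 110 and 913 ± 200 CPM on these diets, and 964 ± 149 CPM on the FA diet without dam 3. At an unadjusted p of 0.05 or below, 2 of the 8 were higher with fluoxetine, 1 was lower with FA and 1 had a lower interaction, beside 6.94%, 2.12% and 1.19% of all genes tested. All 8 milk protein genes had estimates below 0 for fluoxetine (median log2 fold change -0.20), above 0 for FA (0.073) and below 0 for the interaction (-0.29). The medians of all genes were 0.019, 0.017 and 0.035, and the share of all genes on each side of 0 is not given here. Of these 8 milk protein genes, 1 was lower with fluoxetine at an unadjusted p of 0.05 or below, beside 2.98% of all genes tested. Without both libraries that stood apart, 6 of the 8 were below 0 for fluoxetine (median -0.064, with 2 at that level), all 8 were above 0 for FA (0.098) and all 8 below 0 for the interaction (-0.23). Without dam 13 alone, 5 of the 8 were above 0 for FA (0.018). On the breeder diet the mean summed level of the milk proteins was 682747 CPM with saline and 657036 CPM with fluoxetine, and 713476 CPM with fluoxetine without dam 13. On the FA diet it was 789666 CPM with saline and 629212 CPM with fluoxetine, and 710727 CPM with fluoxetine without dam 3. Of 8 myoepithelial markers, led by *Acta2* (173 CPM), 3 were lower with fluoxetine and 3 higher with FA at that level, beside 2.98% and 2.95% of all genes. Of 9 endothelial markers 1 was higher with fluoxetine, beside 6.94%. None of the 8 adipocyte markers (most abundant *Car3*), 7 of 8 tested macrophage and leukocyte markers (most abundant *Jchain*) or 8 skeletal muscle markers (most abundant *Myh4*) reached that level in a contrast with all dams. Without dam 3, 1 macrophage and leukocyte marker was lower at it for FA and 2 for the interaction, and without both libraries 0 and 1 were. The median fluoxetine estimate of these markers was 0.18 with all dams (4 of 7 above 0) and -0.11 without dam 3 (0 of 7). The share of all genes at that level in the fits without these libraries is not given here. No marker of these lists had 0 counts in all dams, and their part in the estimates of the junction genes was not tested.

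Between dams of the same group, some of the junction genes varied together. Log2 CPM were centred on the group means over 31 dams, and 36 pairs of the 9 tested members were compared by a two-sided permutation test within groups. By Pearson's r, 4 pairs had an adjusted p of 0.05 or below, and 3 of them also by Spearman's rho. *Cldn8* and *F11r* had r = 0.57 (p = 0.00502, adjusted p = 0.0452) and rho = 0.57 (p = 0.00267, adjusted p = 0.0317). Without the 2 dams farthest from the median of *Cldn8*, r was 0.59 (permutation p = 0.00139). *Ocln* and *Tjp1*, which bind each other in the junction plaque, had r = 0.57 (p = 0.00408, adjusted p = 0.0452) and rho = 0.56 (p = 0.00286, adjusted p = 0.0317), and r = 0.55 (p = 0.00351) without the 2 farthest dams. Both pairs thus held without the extreme dams.

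The other pairs that passed by Pearson's r rested in part on dam 3 of FA diet + fluoxetine, whose *Cldn7* and *Ocln* were lowest with TMM and RLE but not by library size alone. *Cldn8* and *Ocln* had r = 0.67 (p = 0.00192, adjusted p = 0.0452) and rho = 0.55 (p = 0.00352, adjusted p = 0.0317) by the permutation test. Without dam 3, r was 0.49 (permutation p = 0.0140), and without the 2 dams farthest from the median of *Cldn8* it was 0.40 (permutation p = 0.0556). *Cldn7* and *Cldn8* had r = 0.67 (p = 0.00343, adjusted p = 0.0452) but rho = 0.43 (p = 0.0237, adjusted p = 0.122). Their r was 0.43 (permutation p = 0.0278) without dam 3 and 0.34 (p = 0.0941) without the 2 farthest dams. Apart from these, *Cldn3* and *F11r* passed by ranks only and did not rest on dam 3 (r = 0.52 without it), with rho = 0.63 (p = 4e-04, adjusted p = 0.0144) and r = 0.52 (p = 0.0111, adjusted p = 0.0665). *Cldn3* and its chromosomal neighbour *Cldn4* also passed by ranks only (r = 0.47 without dam 3), with rho = 0.47 (p = 0.00667, adjusted p = 0.0480) and r = 0.38 (p = 0.0200, adjusted p = 0.103).

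**Figure D4:**
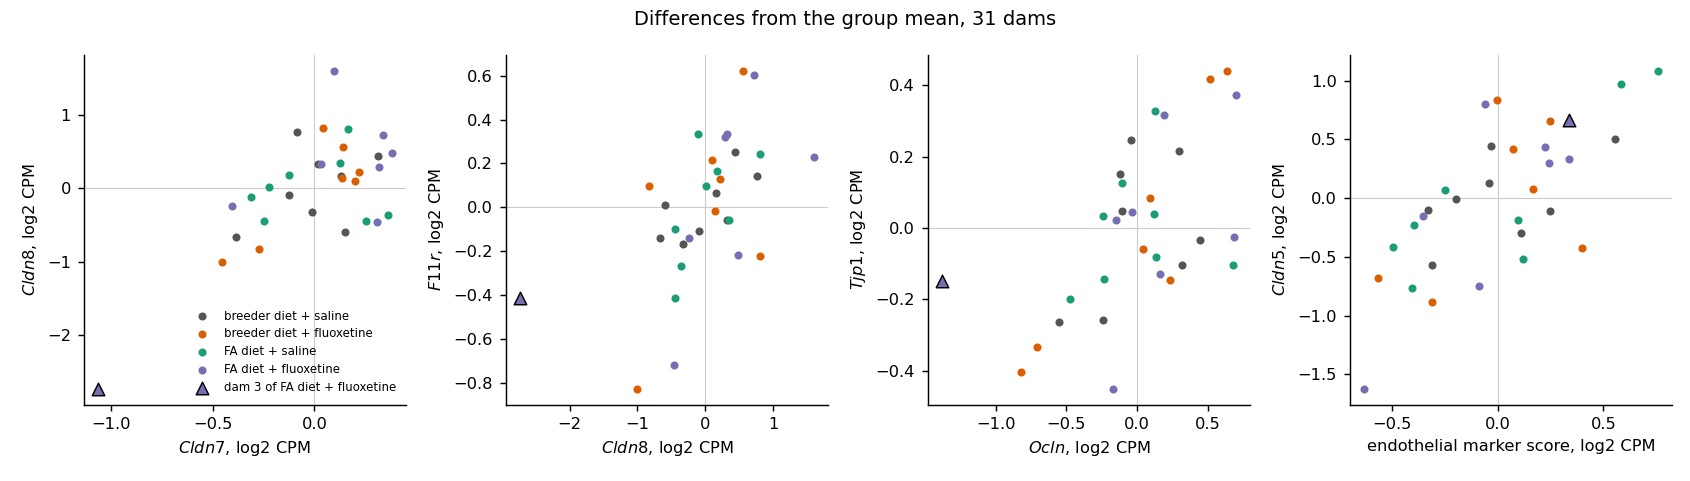
Log2 CPM as the difference from the group mean in 31 dams for *Cldn7* and *Cldn8*, *Cldn8* and *F11r*, *Ocln* and *Tjp1*, and the endothelial marker score and *Cldn5*, with a triangle for dam 3 of FA diet + fluoxetine. The triangle lies far from the other points of *Cldn7* and *Cldn8* (r = 0.67, and 0.43 without it), while *Ocln* and *Tjp1* (r = 0.57, and 0.61 without it) do not depend on it.

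The members were also compared with the mean log2 CPM of 5 marker lists and with the share of counts in the 20 most abundant genes, in 54 relations. *Cldn5* moved with the endothelial markers (r = 0.70, p = 1e-04, adjusted p = 0.00540 by the permutation test, and rho = 0.64, p = 0.00043, adjusted p = 0.0165). Without the 2 dams farthest in the score, r was 0.60 (permutation p = 0.00250). *F11r* moved against them, with r = -0.61 (p = 0.00033, adjusted p = 0.00891), rho = -0.62 (p = 0.00061, adjusted p = 0.0165) and r = -0.60 (p = 0.00051) without the 2 farthest dams. *Tjp3* had r = 0.56 (p = 0.00133, adjusted p = 0.0180) and rho = 0.47 (p = 0.0112, adjusted p = 0.0715) with the endothelial score, and r = 0.42 (p = 0.0210) without the 2 farthest dams. *Cldn7* had r = 0.56 (p = 0.00220, adjusted p = 0.0220) and rho = 0.52 (p = 0.00539, adjusted p = 0.0526) with the luminal markers, and r = 0.51 (p = 0.0283) without the 2 farthest dams. *Ocln* had r = 0.69 (p = 0.00102, adjusted p = 0.0180) and rho = 0.48 (p = 0.00343, adjusted p = 0.0526) with the milk proteins, and r = 0.38 (p = 0.0395) without the 2 farthest dams. With the share of the 20 most abundant genes *Ocln* had r = 0.69 (p = 0.00244, adjusted p = 0.0220) and rho = 0.47 (p = 0.00585, adjusted p = 0.0526), and r = 0.34 (p = 0.0925) without the 2 farthest dams, so that this relation rested on them.

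The genes most like each member across the 31 dams were ranked by Pearson's r of centred log2 CPM over the 14362 tested genes. The closest were those of *Cldn8*, led by *Man1a2*, a mannosidase of the Golgi (r = 0.95, and 0.90 without dam 3 of FA diet + fluoxetine), *Srpra* (0.94 and 0.87) and *Cd24a* (0.93 and 0.88). For *Ocln* they were *Mdfic* (0.89 and 0.84), *Hs3st3b1* (0.86 and 0.79) and *Smpdl3a* (0.85 and 0.76). Genes near *Cldn7* included *Cox5a* (0.82 and 0.66, at rank 27 without that dam) and *Aldoc* (0.82 and 0.65, at rank 33 without it). *Cldn8* and *Ocln* kept their leading gene without that dam.

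The gene nearest to *Cldn5* was *Flt4*, a receptor of endothelial cells (r = 0.76, and 0.75 without dam 3), followed by *Vwa3a* (0.75 and 0.74) and the endothelial adhesion molecule *Pecam1* (0.75 and 0.74). *Tjp3* was nearest to *Eln*, the elastin gene (0.72 and 0.70), *Notch4* (0.71 and 0.71) and *Arhgef18* (0.69 and 0.67). *Tjp1* was nearest to *Sestd1* (0.78 and 0.78), the actin scaffold *Iqgap1* (0.75 and 0.80) and *Sash1* (0.75 and 0.83), and *F11r* to *Aftph* (0.84 and 0.83), *Kif1b* (0.82 and 0.81) and *Gpbp1l1* (0.82 and 0.81). *Cldn3* was nearest to *Dusp8* (0.78 and 0.79), *Rab11a* (0.71 and 0.71) and *Bri3* (0.70 and 0.70). Without dam 3 the leading gene changed for *Tjp3* (to *Nt5c2*, 0.72), *F11r* (to *Ppp1cb*, 0.83), *Tjp1* (to *Sash1*) and *Cldn4*. With all dams the list of *Cldn4* held *Kdm1a* (0.72), *Heg1* (0.71) and *Nfe2l3* (0.69), and without that dam its leading genes were *Jund* (0.67), *C4b* (0.63) and *Btg2* (0.58). These r are descriptions across dams, which share library composition and depth.

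Some counts could include reads of a neighbour. *Cldn7* shares 331 exon bases with *Elp5* on the opposite strand (7879 counts over 31 dams, against 26052 for *Cldn7*), *Tjp3* shares 47 with *Apba3*, and *Cldn3* shares 906 with the noncoding *Wbscr25* (63 counts). The strand option of the counting is not given in the sources used here, so reads of such antisense pairs cannot be told apart. *Cldn3*, *Cldn4*, *Cldn5* and *Cldn8* have 1 exon each in their main transcript.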

How the data were processed

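The authors trimmed reads of polyadenylated RNA with Trim Galore 0.4.4, aligned them to GRCm39 by Hisat2 and assigned them to genes by htseq-count in intersection-nonempty mode. The deposited values are whole read counts for each Ensembl gene, with no scaling. Neither the release of the annotation nor the strand setting is given in the sources used here. Symbols, exons and start sites were taken from GENCODE vM39, which lacks 674 of the counted genes.

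Counts were analysed in edgeR 4.0.16 under R 4.3.3. The function filterByExpr kept 14362 genes and removed 41017, and scaling was by TMM. One model held the 4 groups with robust dispersions, and its contrasts for fluoxetine, FA and the interaction were tested by quasi-likelihood. Benjamini-Hochberg adjustment ran over all genes tested, with the study's FDR of 10%, and genes at an unadjusted p up to 0.05 are given as a second count. Each SE was derived from the estimate and its F value. Intervals are 95% limits from the normal distribution, and so are somewhat narrower than the F test implies. The prior count of log2 CPM was 2, and lengths are the union of a gene's exons. Correlations used 100000 permutations within groups. No libraries of a group were duplicates (chi-square per degree of freedom at least 14.4), and p-values measure the spread between dams.

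The members and lists were chosen with earlier results of these data known. Named are all members, genes of the other junction lists at an unadjusted p of 0.05 or below (or of smallest p), marker lists by counts, summed level and most abundant gene, and the 3 genes most like each member, of which 1 is not reported here. *Ybx3*, *Cgn* and *Marveld3* were named for their level after it was seen. Cldn26 and Bves were not matched and not used here. Alternatives were the likelihood ratio test, DESeq2 1.42.0, RLE and upper quartile scaling, no filter, omission of the 20 most abundant genes, a block by dam number, and omission of each dam in turn. Omission of both libraries that stood apart, and their levels under other scalings, were chosen after seeing the data. The tests were tested on simulated data.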

Additional observations from a re-analysis of the deposited data

Results flagged for a closer look

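In 44 groups of values, 10 members and the share of the 20 most abundant genes in 4 groups each, 9 had an extreme dam set off from the rest by Dixon's criterion. Chance meets it in about 1 in 20 groups of normally distributed values. It was applied to CPM without a log scale, for which this rate need not hold. *Cldn4* was set off upwards in dam 3 of FA diet + fluoxetine (14.9 CPM, next 4.37) and in dam 5 of breeder diet + fluoxetine (6.61 CPM, next 3.61). *Ocln* was set off upwards in dam 12 of FA diet + saline (10.3 CPM, next 7.03). *Cldn1*, with few counts, was set off upwards in dam 2 of breeder diet + saline (1.06 CPM), dam 11 of FA diet + saline (1.13 CPM) and dam 2 of breeder diet + fluoxetine (0.300 CPM). The share of counts in the 20 most abundant genes was set off downwards in dam 3 of FA diet + fluoxetine (39.3%, next 72.6%), dam 13 of breeder diet + fluoxetine (60.5%, next 74.9%) and dam 3 of FA diet + saline (70.1%, next 77.7%).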

How the results depend on the processing

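No member passed the FDR of 10% in any contrast under any alternative run, including each dam left out in turn. The lowest adjusted p over them was 0.316 for fluoxetine (*Cldn8*), 0.622 for FA (*Cldn5*) and 0.855 for the interaction (*Tjp1*). RLE or upper quartile scaling moved the median of all genes by less than 0.1 on the log2 scale. Depth limits *Cldn1*, and the spread between dams limits *Cldn4*, *Cldn5* and *Cldn8*. The order of *Cldn3*, *F11r*, *Tjp3*, *Cldn4*, *Ocln* and *Cldn1* by level per kb was the same with the longest transcript as length, RLE scaling and library size alone, and *Cldn7* moved above *Cldn8* and *Tjp1* above *Cldn5* with the longest transcript.

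The number of members at an unadjusted p of 0.05 or below, 0 in each contrast, became 2 for fluoxetine without a filter (*Ocln* and *Cldn1*, both lower) and 1 for the interaction without both libraries that stood apart (*Tjp1*). With each dam left out it ranged from 0 to 2 for fluoxetine, from 0 to 1 for FA and from 0 to 1 for the interaction. The 2 were *Ocln* and *Cldn8* without dam 2 of FA diet + fluoxetine. Of the other tight junction genes, 2 in place of 6 were at that level for fluoxetine without both libraries, and for the interaction 2 with DESeq2 and 3 without a filter in place of 1. With each dam left out that number ranged from 3 to 7 for fluoxetine, from 1 to 4 for FA and from 0 to 3 for the interaction. The share of all genes at that level under the alternatives of this section is not given here, so that these counts have no background beside them.

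Same-numbered dams of different groups did not meet the criterion for pairs, a correlation above 0.1 in every pair, since 12 of 28 had one. Their median was 0.079, against -0.0070 over 332 other pairs. In 17 of 56 comparisons of a dam with another group, the closest of the 7 or 8 dams there bore its number. A pairing was thus not shown to be absent, and the main fits held no block for it. With a replicate block, 1 member was at an unadjusted p of 0.05 or below in each contrast (*Cldn8* at -0.65 for fluoxetine, *F11r* at -0.34 for FA and -0.67 for the interaction), and of the other tight junction genes 3 for fluoxetine, 1 for FA and 0 for the interaction. The block reversed the sign of *Tjp3* (-0.050) and *Cldn3* (0.0040) for fluoxetine, of *Cldn8* for FA (0.10), and of *Cldn5* (0.10), *Cldn4* (-0.19) and *Cldn8* (0.0045) for the interaction.

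Without both libraries that stood apart, the sign reversed for *Cldn4* with fluoxetine (-0.25), for *Cldn7* (0.0048), *Tjp1* (-0.015) and *Cldn8* (0.036) with FA, and for *Cldn4* (-0.18) and *Cldn8* (0.13) in the interaction. None of these values was near the threshold, and the cause was not tested. With each dam left out, estimates that changed sign ranged from -0.010 to 0.062 for *Tjp1* and from -0.28 to 0.26 for *Cldn4* with fluoxetine. With FA they ranged from -0.018 to 0.053 for *Tjp1*, from -0.48 to 0.060 for *Cldn4*, from -0.20 to 0.038 for *Cldn8* and from -0.092 to 0.020 for *Cldn3*. For the interaction they ranged from -0.14 to 0.19 for *Cldn5*, from -0.14 to 0.80 for *Cldn4* and from -0.36 to 0.11 for *Cldn8*. The lowest *Cldn4* value came without dam 3 of FA diet + fluoxetine in all 3 contrasts.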

Other observations

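Several junction genes below the filter were counted mainly in dam 3 of FA diet + fluoxetine, the library with the lowest share of milk transcripts. All 29 counts of *Cldn2*, a pore-forming claudin, came from this dam (0.507 CPM there). It also held 25 of 44 counts of *Cldn6*, 91 of 170 counts of *Cldn10* (1.59 CPM), 101 of 137 counts of *Ildr2* (1.77 CPM) and 63 of 117 counts of the desmosomal cadherin *Dsc2* (1.10 CPM). It held a smaller part for *Cldn1* (28 of 137 counts) and *Magi2* (52 of 141). In contrast it held 0 of 73 counts of *Cldn9*, 0 of 37 counts of *Cldn20* and 0 of 20 counts of *Cldn17*. With its TMM factor of 3.04, this dam would hold more counts than the other dams of a gene at equal CPM. These genes were picked after their values were seen.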
